A study of Homo sapiens with 18 samples.

Results

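The metallothionein cluster is a group of small genes on the long arm of chromosome 16, 10 of which were followed here: MT4, MT3, MT2A, MT1E, MT1M, MT1A, MT1F, MT1G, MT1H and MT1X. All glucocorticoid receptor (GR) peaks were taken whose summit, the base of highest signal in a peak, lay from 50 kb before the first of these genes to 50 kb after the last, which is chr16:56515073-56734196 in GRCh38, a window of 219 kb. This gave 25 of the 20642 peaks of the 6 peak lists. Occupancy by GR was followed with ChIP-seq, in which DNA crosslinked to GR is immunoprecipitated and sequenced, in U2OS-GRα cells, a human osteosarcoma line stably transfected with the α form of GR. There were 2 ChIP libraries and 1 input library for each of 6 siRNA combinations, and in every one of them the cells received siRNA for 48 h and then 100 nM dexamethasone (dex), a synthetic glucocorticoid, for 1 h. The combinations were non-specific control siRNA (siNS/siNS), depletion of the GR coregulator Hic-5 (siHic5/siNS), of the chromatin remodeler CHD9 (siCHD9/siNS) or of the remodeler BRM (siBRM/siNS), and depletion of Hic-5 together with CHD9 (siCHD9/siHic5) or together with BRM (siBRM/siHic5). No library without dex was included, so the lists show where GR was bound under hormone and not what the hormone changed. The receptor comes from a stable transgene, so its level is that of this line and not of a tissue.

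Metallothioneins are small, cysteine-rich proteins that bind zinc, copper and cadmium and are known for protecting cells against heavy metals and oxidants. Their genes are switched on by metals through the zinc-sensing factor MTF-1, which binds metal response elements (MRE) near the start site, and several of them are also induced by glucocorticoids. GR binds as a dimer to the glucocorticoid response element (GRE), an imperfect palindrome, and MT2A was among the first human genes for which such an element was described. Within the cluster MT2A and the MT1 genes encode the widely expressed isoforms, MT3 is known mainly from brain and MT4 from stratified squamous epithelium.

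A peak is called here a GR binding region (GBR). The authors called GBR on the pooled replicates of each combination, so in these lists a combination has 1 value and there is no spread between replicates. No difference between combinations could be tested from the lists. The study itself used DiffBind, a test of differential binding, to compare Hic-5 depletion with control and each double depletion with Hic-5 depletion alone. Those results were not analysed here. Without Hic-5 siRNA the deposited lists held 2582 GBR (siNS/siNS), 1415 (siCHD9/siNS) and 1278 (siBRM/siNS), and with it 9533 (siHic5/siNS), 2451 (siCHD9/siHic5) and 3383 (siBRM/siHic5). The number of reads behind each list is not in the files. A GBR is described by its signal value, an enrichment score, by its −log10 p-value, both from the deposited lists, and by its rank within its own list by −log10 p-value. In the MACS2 peak layout the signal value is a fold enrichment, whereas the supplement of the study describes it as an average enrichment in CPM, so its unit is uncertain and it is compared only within a list, between peaks or with a median. The signal value and the −log10 p-value may depend on depth, so values of different lists are given side by side and not compared as occupancy.

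GR was found at the cluster at 6 places, named here sites 1 to 6 by increasing coordinate. Sites 2, 3 and 4 lie around MT2A, site 5 at the start of MT1E, site 6 at the start of MT1X and site 1 in an intron of BBS2, a gene of the primary cilium, 17.7 kb upstream of MT4. The sequences below show what lies under the strongest and most often called sites and, for contrast, under the site called in the fewest lists. They are from the plus strand of GRCh38, from 5′ to 3′, with GRE matches in capitals. Site 2 is chr16:56607190-56607489, site 3 is chr16:56608194-56608493 and site 4, with no GRE match, is chr16:56610248-56610547, each 300 bases around the median summit.
Site 2, upstream of MT2A: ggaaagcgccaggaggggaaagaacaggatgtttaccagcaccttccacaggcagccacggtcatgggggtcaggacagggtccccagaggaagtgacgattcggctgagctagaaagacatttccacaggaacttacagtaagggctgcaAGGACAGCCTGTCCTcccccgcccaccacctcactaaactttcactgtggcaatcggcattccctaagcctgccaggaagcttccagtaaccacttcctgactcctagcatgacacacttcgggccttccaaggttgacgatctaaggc
Site 3, promoter of MT2A: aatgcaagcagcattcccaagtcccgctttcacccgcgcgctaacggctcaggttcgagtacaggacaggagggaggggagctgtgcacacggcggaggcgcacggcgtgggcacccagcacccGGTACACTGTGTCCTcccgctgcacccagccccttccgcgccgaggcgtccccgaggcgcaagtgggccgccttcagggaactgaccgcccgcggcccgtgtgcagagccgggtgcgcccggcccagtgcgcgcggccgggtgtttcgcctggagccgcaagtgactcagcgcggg
Site 4, downstream of MT2A: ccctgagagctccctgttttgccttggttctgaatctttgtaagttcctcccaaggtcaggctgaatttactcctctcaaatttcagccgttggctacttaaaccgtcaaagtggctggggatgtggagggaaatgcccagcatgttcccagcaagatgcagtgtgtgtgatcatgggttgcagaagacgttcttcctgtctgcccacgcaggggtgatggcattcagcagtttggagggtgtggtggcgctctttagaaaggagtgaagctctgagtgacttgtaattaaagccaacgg
At site 5 (chr16:56625534-56625562) and site 6 (chr16:56682610-56682638) only the GRE match nearest to the summit is shown, with 7 bases to either side.
Site 5, start of MT1E: gacttcgGGAACACCGCGTACCtgcgggg
Site 6, start of MT1X: cagccacAGTACAGACTCTTCCtgggttt

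The GRE match under site 2 and that under site 3 both fit the 15-letter consensus at all of its 10 defined positions. They are the only matches without a mismatch in the whole window. The match at site 2, chr16:56607341-56607355, lies 8 bp from the median summit, and the match at site 3, chr16:56608318-56608332, lies 19 bp from the median summit and 259 bp upstream of the MT2A start site. The match at site 5, chr16:56625541-56625555, has 1 mismatch and lies 7 bp from the median summit. At site 6 the nearest match, chr16:56682617-56682631, has 1 mismatch and lies 347 bp from the median summit, in an exon of MT1X. Sites 1 and 4 held no GRE match within 1 kb centered on the summit.

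**Figure D1:**
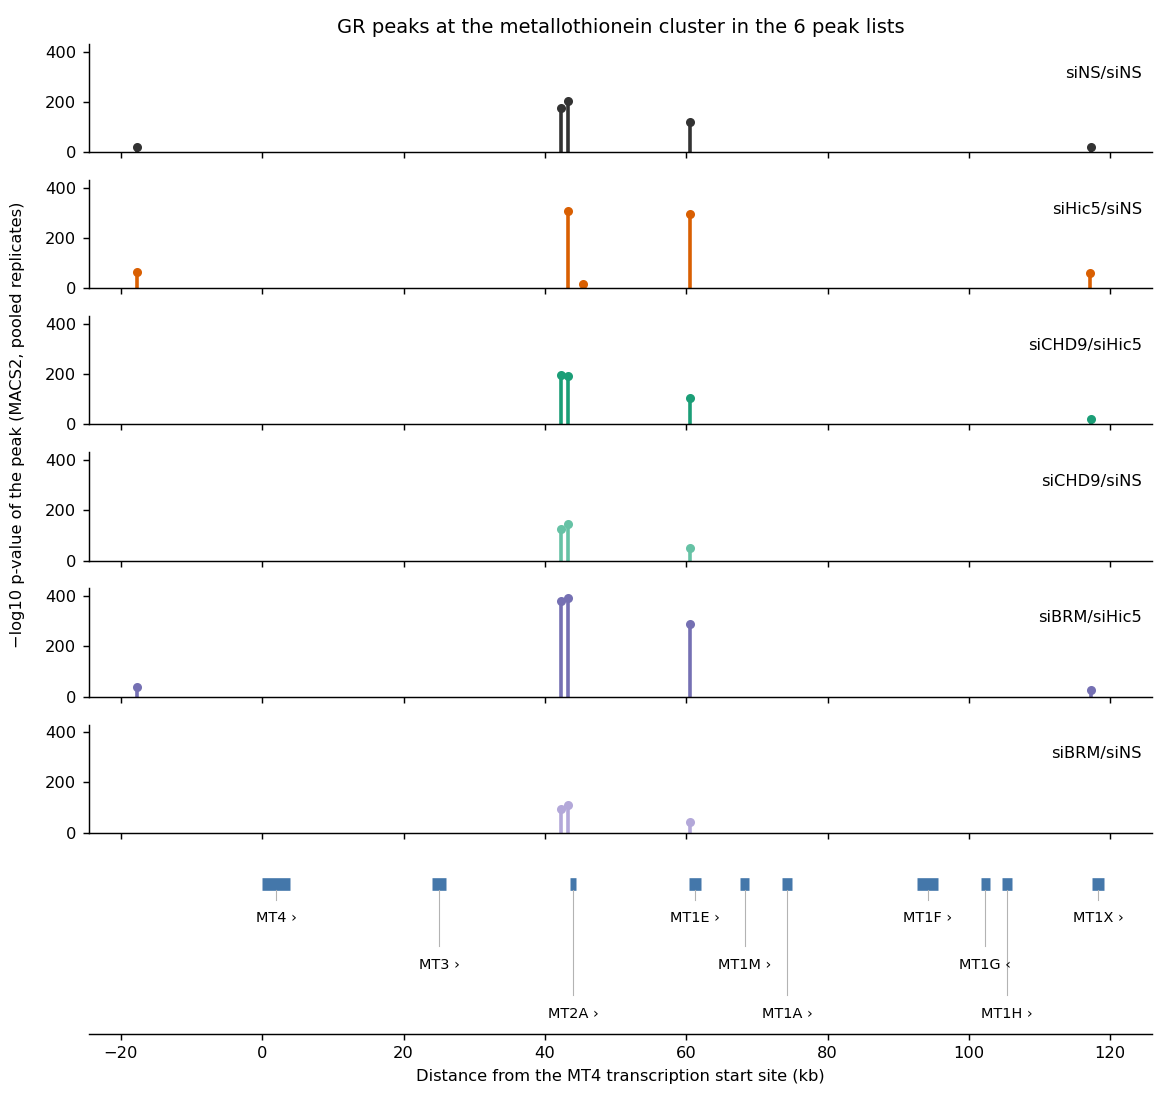
GR peaks at the cluster in the 6 lists, with the distance of the summit from the MT4 start site in kb on the x axis, the −log10 p-value of the peak on the y axis and the 10 genes below with arrows for their strand. Peaks at the MT2A promoter, upstream of it and at MT1E are present in every list, except that siHic5/siNS has 1 summit for both MT2A positions. At MT1E the −log10 p-value runs from 42.9 in siBRM/siNS to 294 in siHic5/siNS. Peaks in the BBS2 intron and at MT1X are missing from some lists and, within a list, lower than those at MT1E and the MT2A promoter. In siHic5/siNS they reach 63.4 and 60.9. The peak downstream of MT2A is present in siHic5/siNS only, at 17.4.

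At MT2A (ENSG00000125148.7, plus strand, chr16:56608584-56609497) GR was called at the promoter in all 6 lists. The summits of site 3 lay 235 to 265 bp upstream of the start site, within 30 bp of each other. The peak had a signal value of 30.2 and rank 10 of 2582 in siNS/siNS, 46.3 and rank 4 of 9533 in siHic5/siNS, and 29.9 and rank 10 of 2451 in siCHD9/siHic5. It had 27.6 and rank 10 of 1415 in siCHD9/siNS, 43.6 and rank 5 of 3383 in siBRM/siHic5, and 20.6 and rank 11 of 1278 in siBRM/siNS. The MT2A promoter was thus among the 11 strongest GBR of every list. The −log10 p-values were 205, 306, 192, 144, 392 and 112 in the same order, against list medians of 21.2, 22.4, 20.7, 18.9, 32.8 and 18.6.

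Site 2 lay 1.24 kb upstream of the MT2A start site, in intergenic sequence. It had a summit of its own in 5 lists, within 24 bp of each other, with a signal value of 26.8 and rank 20 in siNS/siNS, 30.0 and rank 9 in siCHD9/siHic5 and 27.2 and rank 20 in siCHD9/siNS. In siBRM/siHic5 it had 47.8 and rank 6, and in siBRM/siNS 17.0 and rank 25. In siHic5/siNS no separate summit was called, but a single peak of 2434 bp, chr16:56606559-56608992, covered both site 2 and site 3. The median summits of the 2 sites were 1.00 kb apart, and the signal value of site 2 was 0.828 to 1.10 times that of site 3 in the 5 lists. Joined by overlap of at least 1 bp, the 11 peaks at sites 2 and 3 make 1 site called in all 6 lists.

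Site 4 was called in siHic5/siNS alone, as were 58.7% of all siHic5/siNS GBR. The peak, chr16:56609550-56610577, had its summit 1.81 kb downstream of the MT2A start site, beyond the end of the gene, in an intron of the lncRNA ENSG00000260823, which is on the minus strand. Its signal value was 6.56 and its −log10 p-value 17.4, rank 6415 of 9533. Its −log10 q-value of 14.1 was under that of every peak in the siBRM/siHic5 list, the lowest of which was 14.2.

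**Figure D2:**
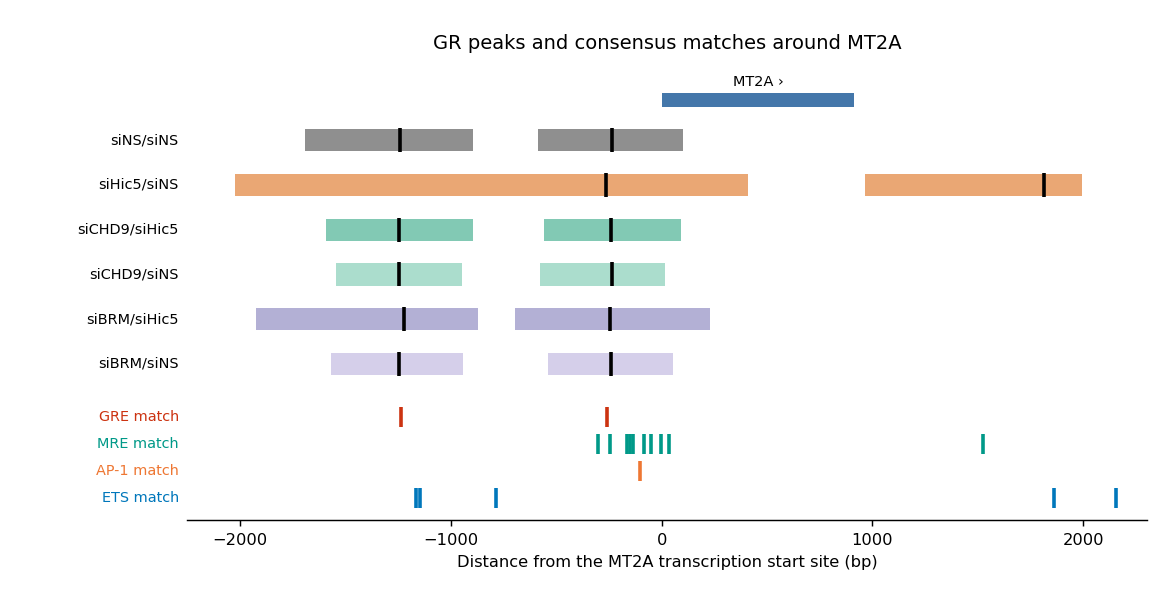
Peaks of the 6 lists (bars, with the summit as a black line) and consensus matches (colored lines) around MT2A, by distance from the MT2A start site in bp. The summits of sites 2 and 3 lie beside the 2 GRE matches, MRE matches cluster at the promoter, and the peak downstream of the gene is present in siHic5/siNS only.

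At MT1E (ENSG00000169715.15, plus strand, chr16:56625475-56627112) GR was also called in all 6 lists, with summits within 46 bp of each other. The median summit lay 226 bp upstream of the start of the canonical transcript, in the 5′ UTR of a longer MT1E transcript. The signal value and rank of site 5 were 18.5 and 69 in siNS/siNS, 52.5 and 9 in siHic5/siNS, and 21.8 and 94 in siCHD9/siHic5. They were 12.5 and 154 in siCHD9/siNS, 42.4 and 37 in siBRM/siHic5, and 9.35 and 151 in siBRM/siNS. In siHic5/siNS the site was among the 9 strongest GBR of the list and its signal value exceeded that of the MT2A promoter, whereas in the other 5 lists it was below it.

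The ratio of the MT1E to the MT2A promoter signal value, which compares 2 peaks within a list, was 1.14 in siHic5/siNS, 0.972 in siBRM/siHic5 and 0.727 in siCHD9/siHic5. In the lists without Hic-5 siRNA it was 0.612 in siNS/siNS, 0.454 in siBRM/siNS and 0.451 in siCHD9/siNS. By signal value the 3 lists from Hic-5 depleted cells all had a higher ratio than the 3 lists from cells containing Hic-5. By −log10 p-value the 2 groups overlapped. The ratio of the −log10 p-values was 0.960 in siHic5/siNS, 0.732 in siBRM/siHic5 and 0.546 in siCHD9/siHic5, the last below the 0.585 in siNS/siNS, and 0.381 in siBRM/siNS and 0.345 in siCHD9/siNS.

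To set both GBR beside other GBR of the same list, the signal value was divided by a median of that list. The median was taken over the 882 siHic5/siNS GBR that overlapped a peak in each of the other 5 lists. This measure was chosen after the values were seen. It removes a factor common to a whole list but not a difference in spread between lists. For a GBR with several peaks in a list the highest was used. At MT2A this was site 2 in siBRM/siHic5 (47.8, against 43.6 at the promoter) and in siCHD9/siHic5 (30.0 against 29.9). The relative signal of MT2A was 2.89 in siNS/siNS, 2.45 in siHic5/siNS, 3.10 in siCHD9/siHic5, 3.35 in siCHD9/siNS, 3.23 in siBRM/siHic5 and 2.72 in siBRM/siNS. It exceeded or equaled 98.3% to 99.1% of the 882 GBR in every list, and the values from Hic-5 depleted cells (2.45 to 3.23) overlapped those from cells containing Hic-5 (2.72 to 3.35). The spread around the median differed between lists. The value of 2.45 in siHic5/siNS was at or above 98.8% of the GBR, and 3.10 in siCHD9/siHic5 at or above 98.4%. The relative signal of MT1E was 2.78 in siHic5/siNS, 2.86 in siBRM/siHic5 and 2.25 in siCHD9/siHic5, and 1.77 in siNS/siNS, 1.51 in siCHD9/siNS and 1.23 in siBRM/siNS. At MT1E the range with Hic-5 depleted (2.25 to 2.86) lay above the range with Hic-5 present (1.23 to 1.77). Of the 882 GBR, 44 (4.99%) had all 3 Hic-5 depleted lists above the other 3, and 79 (8.96%) had them all below. The order at MT1E is therefore not particular to it, and the share is no measure of how unlikely the order is. Since each list is 1 pooled value, no lists in this order can be said to differ, and the split at MT1E was not tested.

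**Figure D3:**
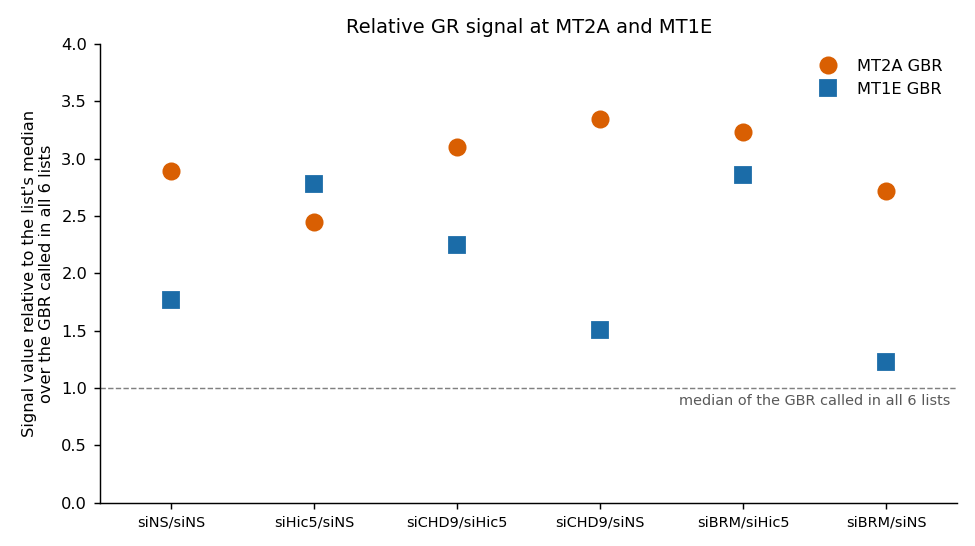
Relative signal (y axis, the signal value divided by the median over the 882 GBR called in all 6 lists) of the GBR at MT2A (circles) and MT1E (squares) in each list (x axis). MT2A stays between 2.45 and 3.35, while MT1E is at 2.25 to 2.86 in the 3 lists with Hic-5 siRNA and at 1.23 to 1.77 in the other 3.

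Single comparisons of the relative signal were read against the same ratio over the 882 GBR, and several of them share a list. From siNS/siNS to siHic5/siNS the ratio was 1.57 at MT1E, at or above 90.4% of the GBR, and 0.847 at MT2A, at or above 35.3% of them, with quartiles of 0.756 and 1.21 over all. From siHic5/siNS to siCHD9/siHic5 it was 0.810 at MT1E and 1.27 at MT2A, with quartiles of 0.826 and 1.35, so that MT1E lay just under the lower quartile. From siHic5/siNS to siBRM/siHic5 it was 1.03 at MT1E, the middle of the 882 GBR, and 1.32 at MT2A, above the upper quartile of 1.26. The siBRM/siHic5 value of MT2A is here that of site 2, and the ratio was not computed for the promoter peak alone. With Hic-5 present, siBRM/siNS over siNS/siNS gave 0.696 at MT1E, at or above only 7.94% of the GBR, and 0.939 at MT2A, while siCHD9/siNS over siNS/siNS gave 0.852 and 1.16, both within the quartiles of 0.850 and 1.32.

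At MT1X (ENSG00000187193.9, plus strand, chr16:56682470-56684196) a weaker GBR was called in 4 lists, with its median summit 193 bp upstream of the start site. Its signal value was 6.53 in siNS/siNS, 14.2 in siHic5/siNS, 7.31 in siCHD9/siHic5 and 7.78 in siBRM/siHic5, and it was missing from siCHD9/siNS and siBRM/siNS. Its rank was 1294 of 2582, 1197 of 9533, 1309 of 2451 and 2044 of 3383, which places it near the middle of 3 lists and within the first 12.6% of the siHic5/siNS list. Site 1, in the BBS2 intron, was called in 3 lists. Its signal value was 6.60 in siNS/siNS, 14.7 in siHic5/siNS and 10.4 in siBRM/siHic5, with ranks of 1533 of 2582, 1120 of 9533 and 1408 of 3383.

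**Figure D4:**
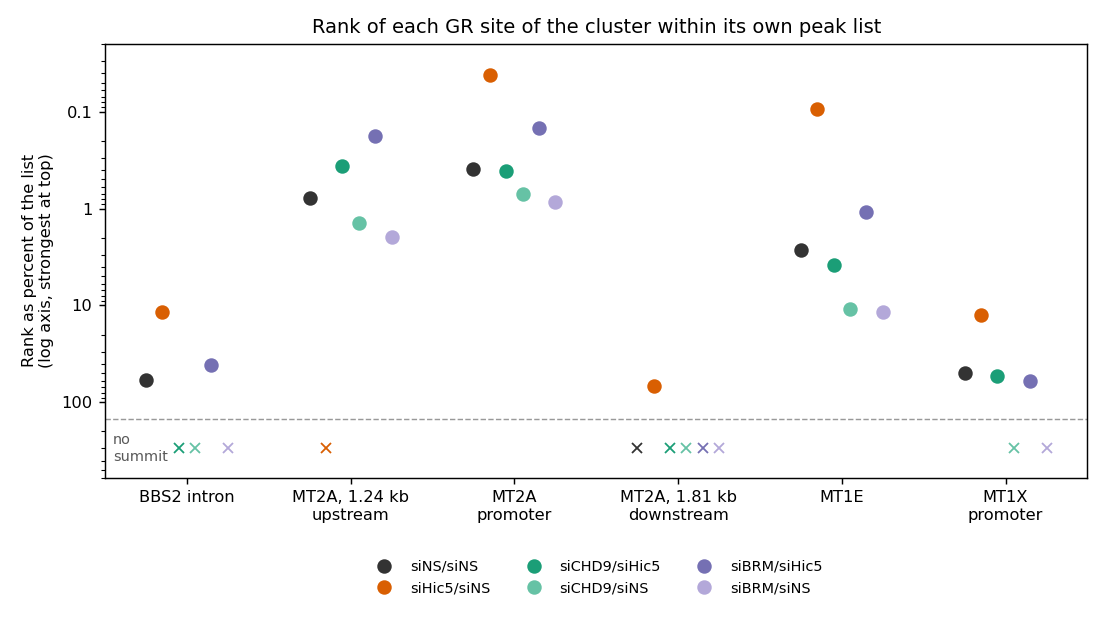
Rank of the 6 sites within their own peak list as a percent of the list (log axis, strongest at the top), with crosses below the dashed line for lists without a summit at the site. The MT2A and MT1E sites lie in the first 11.8% of every list in which they have a summit, the BBS2 intron and MT1X sites between 11.7% and 60.4%, and the site downstream of MT2A at 67.3%. A percent is smaller for the same rank in a longer list, and siHic5/siNS is the longest.

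Counted per list by summit, the window held 5 GBR in siNS/siNS, 5 in siHic5/siNS, 4 in siCHD9/siHic5, 3 in siCHD9/siNS, 5 in siBRM/siHic5 and 3 in siBRM/siNS. The count for siHic5/siNS is no higher than that for siNS/siNS although its list is the longest, and it counts sites 2 and 3 as 1 peak. Per Mb these are 22.8, 22.8, 18.3, 13.7, 22.8 and 13.7 GBR, against 0.836, 3.09, 0.794, 0.458, 1.10 and 0.414 over the genome in the same order. Of 14083 genome windows of the same length, 2.22% held at least 5 siHic5/siNS summits and 0.270% held at least 3 summits in each of the 6 lists. Both cutoffs are this window's own counts, so it meets them by construction. In siCHD9/siNS and siBRM/siNS the 3 summits are those of sites 2, 3 and 5. Joined by overlap, 2 sites of the window were called in all 6 lists. The next siHic5/siNS GBR lay 761 kb before the window and 168 kb after it.

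Whether a GBR seen after Hic-5 depletion was also seen in the other cells was asked of the 5 siHic5/siNS GBR of the window. An overlapping peak was called for 4 of them in siNS/siNS, where 26.0% of all siHic5/siNS GBR had one. It was called for 3 in siCHD9/siHic5 (24.6% of all), for 2 in siCHD9/siNS (14.5%), for 4 in siBRM/siHic5 (34.6%) and for 2 in siBRM/siNS (13.1%). The MT2A and MT1E GBR were called in all of the other 5 lists, as were 9.25% of all siHic5/siNS GBR.

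Strong GBR are seldom missed, so these calls were read against GBR of similar rank, with the siHic5/siNS list divided by rank into 10 groups of equal size. The MT2A and MT1E GBR fall in group 1, the strongest, in which 69.8% of GBR were called in all other lists, 94.8% in siNS/siNS and 93.9% in siCHD9/siHic5. The GBR at MT1X and in the BBS2 intron fall in group 2, in which 15.7% were called in all other lists. In that group 67.1% were called in siNS/siNS and 87.6% in siBRM/siHic5, and both GBR were called in both lists. For siCHD9/siHic5, where the MT1X GBR was called and the BBS2 GBR was not, the share was 59.5%. For siCHD9/siNS and siBRM/siNS, where neither was called, it was 33.2% and 31.0%. The GBR downstream of MT2A falls in group 7, in which 5.24% were called in siNS/siNS, 5.87% in siCHD9/siHic5 and 0.314% in all other lists. Except for the BBS2 GBR in siCHD9/siHic5, each of these calls was that of the majority of GBR in its group.

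The other members had no GBR at their start. The nearest siHic5/siNS summit was 0.265 kb from the start site of MT2A, 0.228 kb from MT1E and 0.206 kb from MT1X. It was 7.11 kb from MT1M (ENSG00000205364.4), 12.4 kb from MT1H (ENSG00000205358.4), 13.1 kb from MT1A (ENSG00000205362.11), 14.2 kb from MT1G (ENSG00000125144.14), the only member on the minus strand, and 24.3 kb from MT1F (ENSG00000198417.7). It was 17.7 kb from MT4 (ENSG00000102891.4) and 18.8 kb from MT3 (ENSG00000087250.9). Of the 10 members 3 had a siHic5/siNS summit within 1 kb and 4 within 10 kb. No list had a summit in the 59.9 kb between sites 1 and 2, which hold the starts of MT4 and MT3, or in the 56.7 kb between sites 5 and 6, which hold the starts of MT1M, MT1A, MT1F, MT1G and MT1H. Related genes can make reads hard to place, so all 75-base stretches were counted that recur elsewhere in the window. Within 500 bp of the start site they made up 0.400% at MT1M and 0 at the other 9 members, and around the summits 1.50% at site 2 and 0 at the other 5 sites. Copies outside the window and nearly identical stretches were not part of this count. Whether reads were lost at these genes was not tested.

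The window held 29 GRE matches with at most 1 mismatch, of which 6 lay under a peak of any list and 23 did not. Peaks covered 6578 of the 219124 bp of the window, with 0.912 matches per kb covered and 0.108 per kb not covered. Within 1 kb of a member start site there were 7 matches at 4 members, 5 of them under a peak of any list. Among these, the match 428 bp downstream of the MT1E start site lay under a siHic5/siNS peak only. The same was so for the matches 154 bp and 433 bp downstream of the MT1X start site. The member with matches but no peak was MT1M, with 1 match 239 bp upstream of the start site and 1 match 435 bp downstream of it.

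Motif matches were also compared with all siHic5/siNS GBR in windows of 1 kb centered on the siHic5/siNS summit. Of the 5 GBR of the cluster, 3 had a GRE match, those at MT2A, MT1E and MT1X, as did 53.6% of all siHic5/siNS GBR. In windows of 200 bp it was 2, at MT2A and MT1E, against 46.1% of all. A GRE match with no mismatch was present in 1, at MT2A, against 11.2%. AP-1, searched as TGACTCA, matched in 2 (37.1% of all), at site 1 and in the MT2A promoter at chr16:56608480-56608486. The ETS motif, searched as CAGGAAG or CCGGAAG, matched in 4 (41.5% of all), and in windows of 200 bp in 1, site 4, at 45 bp from the summit. The separate summit of site 2 had 2 ETS matches in the central 200 bp. For AP-1 and ETS no share over all GBR is given for windows of 200 bp, so those counts cannot be compared. Both strands were searched, and a match is a run of letters and not a bound site.

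The MRE, searched as TGCACNC or TGCGCNC, matched in 4 of the 5 GBR, against 51.0% of all siHic5/siNS GBR. The number of matches in a window set MT2A apart more than their presence did. There were 9 in the 1 kb around the MT2A promoter summit, 4 of them in the central 200 bp, 5 at MT1E, 5 at MT1X, 1 at site 4 and 0 at sites 1 and 2. At least 8 matches were found at 0.168% of all siHic5/siNS GBR. The MRE matches closest to the MT2A summit lie at chr16:56608338-56608344, 3 bp from the median summit, and at chr16:56608278-56608284, 63 bp from it, on either side of the GRE match.

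RefSeq promoter sequences of 300 bases (GRCh38, 250 before to 50 after the start) were at hand for 4 members, MT2A, MT1X, MT1H and MT4, and not for MT3, MT1E, MT1M, MT1A, MT1F or MT1G. MT2A and MT1H each had 8 MRE matches, a number reached by 0.0199% of 35116 promoters, MT1X had 4 (reached by 0.601%) and MT4 had 3 (reached by 2.30%), while 29.6% of all promoters had at least 1. None of the 4 held a GRE match, as was so for all but 3.30% of promoters, and the MT2A match lies just upstream of its promoter window. MT2A, with as many MRE matches as MT1H, had a GBR in all 6 lists and a GRE match 259 bp upstream of its start site. The nearest siHic5/siNS summit to MT1H was 12.4 kb away, and no GRE match lay within 1 kb of the MT1H start site. Whether the number of MRE matches goes with GR binding was not tested.

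Other genes of metal and redox homeostasis were followed as a list of 26, with MTF1, zinc, iron and copper transporters, copper chaperones, ferritin chains and enzymes of the oxidant response. A siHic5/siNS summit lay within 50 kb of the gene body for 12 of the 26, as for 36.4% of 20033 protein-coding genes, and a siNS/siNS summit for 2, FTH1 and HMOX1, against 13.7%. Within 10 kb it was 10 in siHic5/siNS, against 20.0% of protein-coding genes, and 1 in siNS/siNS, against 6.85%. The 10 genes had 13 siHic5/siNS GBR within 10 kb, of which 11 overlapped no peak of another list, against 58.7% of all siHic5/siNS GBR. The other 2 were a GBR at FTH1, the heavy chain of the iron store ferritin, called in all lists but siBRM/siNS with rank 656 in siHic5/siNS, and a GBR at SLC39A13 (rank 7025), also called in siBRM/siHic5. Apart from the FTH1 GBR of rank 656, the 13 GBR ranked from 2864 to 9385. The 58.7% covers all ranks, and weak GBR were less often called elsewhere, with 5.24% of group 7 called in siNS/siNS against 94.8% of group 1. A share for GBR of similar rank was not computed for these genes. By the strongest siHic5/siNS GBR of each gene, the other 9 genes were the zinc transporter SLC30A7 (rank 9028), the manganese exporter SLC30A10 (5820), the metal importers SLC39A8 (6134), SLC39A13 (5964) and SLC39A14 (3344), the copper chaperone ATOX1 (7924), the heme-degrading enzyme HMOX1 (3145), GCLC (4018), which makes the glutathione precursor, and the thioredoxin reductase TXNRD1 (7623). MTF1, the gene of the metal-sensing factor itself, had no siHic5/siNS or siNS/siNS summit within 50 kb. None of these genes had a siHic5/siNS GBR that ranked as high as those of MT2A and MT1E.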

How the data were processed

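Reads had been trimmed, mapped with BWA to GRCh38 (hg38) and cleared of duplicate and mitochondrial reads by the authors, who called peaks with MACS2 on pooled replicates and kept those passing the IDR framework. Versions and the IDR threshold are not given in the sources used here. Each deposited list gives per peak its position, its signal value and its MACS2 p-value and q-value, both deposited as −log10. The DiffBind comparisons and the depth of the libraries were not analysed here. All 18 libraries could be mapped to a combination.

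Peaks were assigned by summit and matched by overlap of at least 1 bp. Sites were peaks with summits within 200 bp. Genes came from GENCODE release 44, coordinates count from 1, and the promoters are from RefSeq. Named were every peak of the window, every member, listed metal genes with a siHic5/siNS summit within 10 kb, and the 5 GBR with ranks most like MT2A, of which 1 is not reported here. Members and lists were chosen with earlier results of these data known. Overlap and motif counting were tested on simulated data. Python 3.11.15, NumPy 2.4.6, pysam 0.24.0, samtools 1.23.1, bedtools 2.31.1 and Matplotlib 3.10.9 were used. Alternatives were other flanks, overlap rules, q-value cutoffs, the 1000 strongest peaks, and other motif windows, mismatches and gene distances.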

Additional observations from a re-analysis of the deposited data

How the results depend on the processing

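Of 110 alternatives over 19 counts, 88 stayed within 1.5 times the reported count and 22 did not. The count of sites called in all 6 lists was among those that stayed. Reduced to the 1000 strongest peaks of each list, the cluster held 3 GBR in siNS/siNS, 2 in siHic5/siNS and 3 in siBRM/siHic5, 2 sites joined by overlap of at least 1 bp instead of 5 (6 by summit), and 0 siHic5/siNS GBR without a peak in any of the other 5 lists. With a −log10 q-value of at least 20 there were 3 GBR in siNS/siNS, and the siHic5/siNS GBR without a peak numbered 2 against siNS/siNS, instead of 1, and 0 against siBRM/siHic5. With 1 cutoff for all lists, a −log10 q-value of 14.2, the GBR downstream of MT2A was lost, and those without a peak numbered 0 against siNS/siNS, 1 against siCHD9/siHic5 and 0 against siBRM/siHic5. With that cutoff the metal genes with a GBR within 50 kb numbered 7 for siHic5/siNS and 0 for siNS/siNS. In a separate alternative, without the cutoff but within 10 kb, the siNS/siNS count was 1. A GRE match was found in 1 of the 5 siHic5/siNS GBR with no mismatch and in 5 with at most 2. In windows of 200 bp AP-1 matched in 0 and ETS in 1. The cause was not tested for any of these.

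No paired analysis was possible because the lists were made from pooled replicates, and no replicate was left out for the same reason. A missing call does not show that GR was absent, and the lowest −log10 q-value differed between lists, from 7.26 for siBRM/siNS to 14.2 for siBRM/siHic5.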

Other observations

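Outside the cluster, 878 sites were called in all 6 lists. Among those whose ranks were most like those of the joined MT2A site, by the mean absolute difference of log10 rank over the 6 lists, were sites nearest to ARRDC2 (0.255), NFKBIA (0.295), RHOB (0.300) and UBE2QL1 (0.348). The joined MT2A site ranked 10 in siNS/siNS, 4 in siHic5/siNS, 9 in siCHD9/siHic5, 10 in siCHD9/siNS, 5 in siBRM/siHic5 and 11 in siBRM/siNS. The site near NFKBIA, which encodes an inhibitor of NF-κB, lay 0.698 kb from the start site and ranked 3, 2, 4, 7, 4 and 5 in the same order. The site near ARRDC2 lay 12.3 kb from the start site and ranked 9, 11, 20, 23, 10 and 12. The sites near RHOB, a small GTPase, and UBE2QL1 lay 93.1 kb and 71.0 kb from the start site.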
